A study of Drosophila melanogaster with 4 samples.

Results

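The region described here is a 350 kb stretch in the middle of the left arm of Drosophila melanogaster chromosome 2, from 2L:10150001 to 2L:10500000 on FlyBase r5, where enriched regions of the chromatin protein HP2 lay closest together outside the pericentric part of the arm. It was taken as 350 bins of 1 kb, with the share of each bin in enriched regions, and as all enriched regions whose midpoint fell within it. By that rule it held 34 of 4728 enriched regions in replicate 1, 34 of 4163 in replicate 2 and 40 of 7037 in the list made from both replicates. The stretch was chosen by the coverage of these same lists, so its coverage, lengths, spacing and scores are given as a description, and no test was run on them.

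HP2 is a partner of heterochromatin protein HP1, to which it binds directly. HP1 recognises methylated histone H3 and is best known for coating the repeat-rich sequence around centromeres and most of chromosome 4, where it helps to keep genes near heterochromatin silent. On polytene chromosomes both proteins are also known from a limited number of sites in the gene-rich arms.

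Chromatin immunoprecipitation followed by sequencing (ChIP-seq) was done with the HP2 antibody Ab2-90 on head nuclei of adult flies of the wild-type strain Oregon-R, kept in population cages, with the stage given only as mixed adult. The 2 ChIP samples each had an input of their own, paired with them by the labels. Whether the replicates were separate collections of flies is not stated, and their spread may be no more than technical. Material from whole heads mixes many cell types. The lists carry no expression values, so the labelled tissue could not be checked against marker genes.

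Each list gives the start, the end and a score of every region of significant enrichment, called a cluster here. The score has the form of a base-2 logarithm. After a constant of the list is taken off, 2 raised to the score was a ratio of whole numbers in 4674 of 4728 clusters of replicate 1, 4093 of 4163 of replicate 2 and 6339 of 7037 of the combined list (denominators up to 3000, relative tolerance 2e-13). With base 10 this held for 24, 20 and 32 clusters. A score higher by 1 within a list therefore stands for a ratio 2 times as large, while the 2 terms of the ratio are not named in the sources used here and the read depth behind them is unknown. Most clusters in the genome were about 2 kb long, with medians of 2099.5 bp in replicate 1 and 2085 bp in replicate 2 over all arms.

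HP2 clusters covered 38.5% of the block in replicate 1 and 36.9% in replicate 2, which averages 37.7% ± 1.16 (SD, n = 2). The rest of distal 2L, which is the arm up to position 21011544 without the block, had 5.69% of its bases in clusters in replicate 1 and 4.42% in replicate 2. The ratio of block to rest averaged 7.56 ± 1.11 (SD, n = 2). It was 6.77 in replicate 1 and 8.34 in replicate 2. A high ratio follows from the choice of the block by its coverage in these lists. Among 1998 other windows of 350 kb on distal 2L, taken every 10 kb, the most covered reached 15.1% in replicate 1 and 11.6% in replicate 2. The combined list covered 45.8% of the block, against 7.50% of the rest.

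With 1.67% of the length of distal 2L, the block held 10.3% of its covered bases in replicate 1, 12.4% in replicate 2 and 9.36% in the combined list. Of its 350 bins, 136 were at least 50% covered in replicate 1, where the background over all bins of distal 2L was 6.21%, and 128 in replicate 2, where it was 4.95%. In the combined list they numbered 163 (background 8.2%), and in both replicates 119 (background 4.61%). Fully covered were 100 bins in replicate 1 (background 3.66%), 97 in replicate 2 (background 2.82%), 122 in the combined list (background 4.57%) and 89 in both replicates (background 2.57%). These counts restate the choice of the block and nothing is read from them beyond its density. Bins with no cluster base made up 186 of 350 in replicate 1 (background 91.2%) and 190 in replicate 2 (background 93%). In both replicates at once 177 bins were free (background 90.7%), and 155 were free in the combined list (background 88.5%) and in all 3 lists (background 88.4%). More than 50% of the bins thus held no cluster base in either replicate, but the chosen bounds take in nearly empty ends. On the right, 59 bins in a row, from 10441001 to 10500000, were free in both replicates. The share is therefore not that of the dense part alone.

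**Figure D1:**
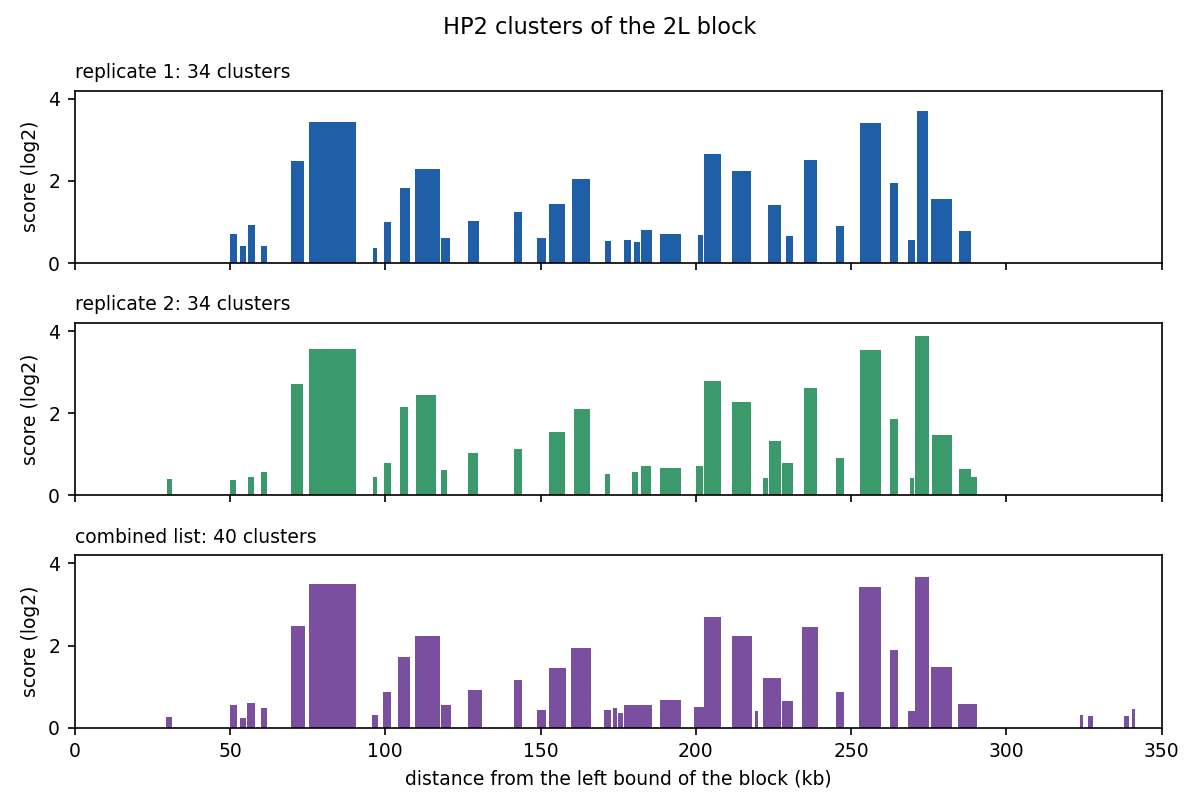
Clusters of the block in each list, drawn to scale: the horizontal axis is the distance from the left bound of the block in kb, bar width is cluster length and bar height is the authors' score on a log2 scale. The 34 clusters of replicate 1, the 34 of replicate 2 and the 40 of the combined list have tall bars at like positions, the tallest reaching 3.70, 3.88 and 3.68.

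The crowding did not fill the whole stretch. In windows of 50 kb, the first was empty in replicate 1 and 3.51% covered in replicate 2, and the last was empty in both. The 5 windows between them were 46.4% to 59.2% covered in replicate 1 and 38.0% to 59.8% in replicate 2. None of the 413 other windows of 50 kb on distal 2L reached the lowest of these values in the same list. The highest of them was 35.2% in replicate 1 and 29.5% in replicate 2. Within the 5 windows coverage had no single summit. The order of the windows differed between the replicates, with the highest value from 10200001 to 10250000 in replicate 1 and from 10350001 to 10400000 in replicate 2.

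In the replicates both edges met long free stretches. On the left, the first cluster of replicate 1 ran from 10200006 to 10202206 with a score of 0.70, and the nearest cluster outside the bounds ended at 10010483 and scored 0.38. That left 189522 bp without a cluster. Replicate 2 had its matching cluster from 10200023 to 10201993 with a score of 0.38, and 1 isolated cluster further out, from 10179600 to 10181352, which scored 0.39 and touched no cluster of replicate 1. Beyond it, 174447 bp were free. On the right, the last cluster ended at 10438428 in replicate 1 with a score of 0.79, and at 10440405 in replicate 2 with 0.46. The next cluster outside began at 10505770 in replicate 1 and scored 1.23. In replicate 2 it began at 10505646 and scored 1.31. The free stretch to it measured 67341 bp in replicate 1 and 65240 bp in replicate 2. In the combined list the free stretches were much shorter. Its first cluster in the bounds began at 10179550, 35949 bp from a cluster at 10142346 to 10143600 that scored 0.88. Its last ended at 10491518, 14147 bp before the next at 10505666. In each replicate the clusters at both edges of the dense part scored below the median of the block, and the nearest one outside on the right scored above them.

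The flanks were sparse for some distance. The 100 kb to the left of the block held no cluster in either replicate and 1 in the combined list, and in the 100 kb to the right clusters took 4.09% of the bases in replicate 1 and 3.09% in replicate 2. Over 500 kb, coverage was 5.90% on the left and 6.36% on the right in replicate 1, beside 5.69% in all of the rest of distal 2L. In replicate 2 it was 4.40% on the left and 5.44% on the right, beside 4.42%.

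**Figure D2:**
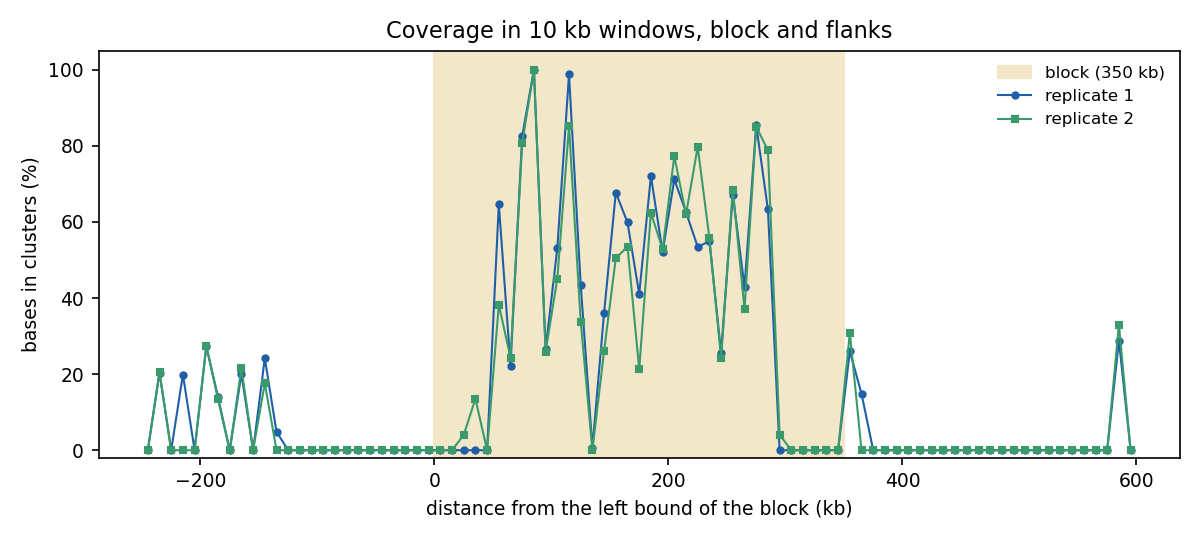
Share of bases in clusters in windows of 10 kb (vertical axis, percent) against the distance from the left bound of the block (horizontal axis, kb), with the block shaded and 250 kb of flank on each side. Coverage stood at 100% in both replicates in the window from 80 to 90 kb, dropped to 0.7% in replicate 1 and 0% in replicate 2 in the window from 130 to 140 kb, and was 0% in both over the 100 kb before the block.

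Clusters joined over gaps of at most 10 kb fell into a left and a right run. The left run, which held the longest cluster, spanned 10200006 to 10280070 in replicate 1 (80065 bp, 12 clusters, 61.5% covered). In replicate 2 it spanned 10200023 to 10279990 (79968 bp, 11 clusters, 54.2% covered). The right run spanned 10291372 to 10438428 in replicate 1 (147057 bp, 22 clusters, 58.2% covered) and 10291408 to 10440405 in replicate 2 (148998 bp, 22 clusters, 56.3% covered). The gap between them spanned 11301 bp in replicate 1 and 11417 bp in replicate 2. Of its bases, 10333 lay outside the clusters of all 3 lists, the longest such stretch in the dense part. The first cluster of the right run, next to this gap, scored 1.24 in replicate 1 and 1.13 in replicate 2.

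With gaps of up to 20 kb allowed, both became a single run of 238423 bp in replicate 1 and 260806 bp in replicate 2, where the isolated cluster on the left was drawn in. With at most 5 kb, the run around the longest cluster shrank to 20932 bp and 21121 bp. The longest run outside the block on distal 2L, with 10 kb allowed, was 47255 bp in replicate 1 (6 clusters, 27.2% covered) and 40425 bp in replicate 2 (6 clusters, 38.7% covered). With 5 kb allowed, the longest run outside measured 26061 bp in replicate 1 and 25850 bp in replicate 2, beginning at 11987045 and 11987090, which was longer than the run around the longest cluster. The longest run of the block at that limit lay in its right part. It spanned 10298950 to 10345209 in replicate 1 (46260 bp, 8 clusters, 65.6% covered) and 10329455 to 10389141 in replicate 2 (59687 bp, 10 clusters, 66.3% covered). At all 3 limits the longest run of distal 2L was thus one of the block, in each of the 3 lists.

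Clusters of the block were close neighbours. The block held 9.71 clusters per 100 kb in each replicate, against 2.51 in the rest of distal 2L in replicate 1 and 2.01 in replicate 2. The median gap was 2497 bp in the block and 14759 bp in the rest in replicate 1, and 2962 bp and 19001 bp in replicate 2. The ratio of the medians, block over rest, was 0.163 ± 0.0094 (SD, n = 2). Gaps under 5 kb numbered 24 of 33 in each replicate, where the background over all gaps of distal 2L was 28.1% in replicate 1 and 25.7% in replicate 2. In the combined list they numbered 32 of 39 (background 35.5%). No gap between neighbouring clusters of the block reached 20 kb in either replicate. In the rest 44.7% of the gaps did in replicate 1 and 49.4% in replicate 2. The combined list had 1 such gap in the block, of 33221 bp, and 33.9% in the rest. Free stretches at the ends of the block were not counted as gaps. At the right end they took 61 bins in a row in replicate 1 and 59 in replicate 2. Midpoints of neighbouring clusters lay a median of 7452 bp apart in the block in replicate 1, with quartiles of 4859 and 9309 bp. In the rest they lay 16748 bp apart, with quartiles of 7256 and 43873.5 bp. In replicate 2 the medians were 7520.5 bp in the block and 21229 bp in the rest. Spacing within the block was thus both shorter and much narrower in its range.

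**Figure D3:**
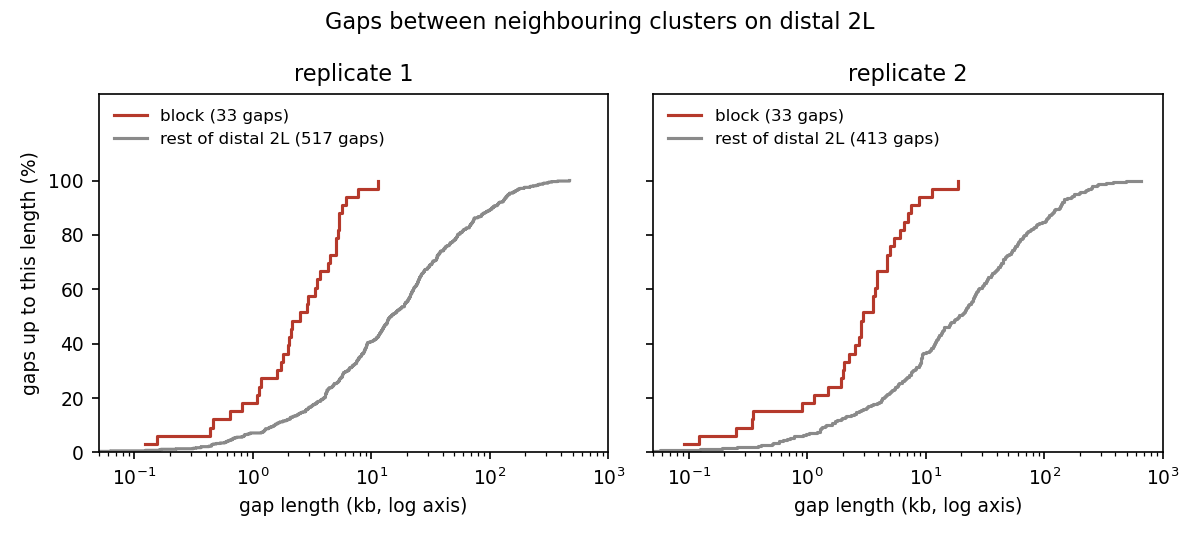
Cumulative share of gaps (vertical axis, percent) up to a given length (horizontal axis, kb on a log scale) between neighbouring clusters of the block and of the rest of distal 2L, 1 panel per replicate. The block's 33 gaps end at 11301 bp in replicate 1 and at 18670 bp in replicate 2. Those of the rest run on to 471861 bp and 662643 bp.

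The 5 longest gaps within the left run of replicate 1 were those from 10211888 to 10219664 (7777 bp), 10270927 to 10276585 (5659 bp), 10240597 to 10245963 (5367 bp), 10251702 to 10254599 (2898 bp) and 10207998 to 10209998 (2001 bp). Replicate 2 called at most 6.55% of the bases in any of them, and the combined list at most 15.4%. These openings recurred in all lists. The third longest gap of the block in replicate 1 lay in the right run, from 10389163 to 10395225 (6063 bp), and replicate 2 called none of it. Some shorter gaps of one replicate were filled in the other. Replicate 2 called 84.1% of the gap from 10377436 to 10379023 and 81.2% of that from 10420564 to 10421205 in replicate 1. Replicate 1 called 91.7% of the gap from 10266351 to 10267839 in replicate 2.

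Cluster lengths set the block apart mainly at the long end. The median was 3173.5 bp in the block and 2081 bp in the rest in replicate 1, and 2889.5 bp and 2069 bp in replicate 2. The lower quartiles lay close together, at 2211.75 bp in the block and 1902.5 bp in the rest in replicate 1, but the upper quartile was 4960.5 bp in the block and 2356 bp in the rest. Clusters of at least 5 kb numbered 9 of 34 in the block in each replicate, where the background over distal 2L was 2.71% in replicate 1 and 2.67% in replicate 2. In the combined list they numbered 12 of 40 (background 3.06%). The 9 of each replicate were 60% of all such clusters on distal 2L in replicate 1 and 75% in replicate 2. They held 49.2% of the summed cluster length of the block in replicate 1 and 49.6% in replicate 2. Short clusters were not missing from it. Under 2 kb were 4 clusters in replicate 1 (background 35.4%) and 8 in replicate 2 (background 35.4%), of 34 in each, and 10 of 40 in the combined list (background 45.1%).

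The longest cluster, of 15143 bp, ran from 10225454 to 10240596 in replicate 1 and from 10225386 to 10240645 in replicate 2, so that its starts differed by 68 bp and its ends by 49 bp. It scored 3.44 in replicate 1 and 3.56 in replicate 2. It filled the longest unbroken stretch of bins, with 14 bins in a row fully covered in both replicates. Its left neighbour, from 10219665 to 10223710, scored 2.49 and 2.72. Its right neighbour, from 10245964 to 10247476, scored only 0.36 and 0.45, and was the lowest-scoring cluster of the block in replicate 1.

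The highest score belonged to a much shorter cluster, from 10421206 to 10424806 in replicate 1 (3601 bp, score 3.70) and from 10420685 to 10424918 in replicate 2 (4234 bp, score 3.88). It ranked first of 553 clusters on distal 2L in replicate 1. The third by score, from 10402790 to 10409508 (6719 bp), reached 3.40 in replicate 1 and 3.55 in replicate 2. The block held 6.15% of all clusters of distal 2L in replicate 1, 7.57% in replicate 2 and 5.33% in the combined list. Of the 20 highest-scoring clusters of distal 2L, 10 lay in the block in each of the 3 lists. Other strong ones in replicate 1 ran from 10352753 to 10358133 (score 2.66), from 10384868 to 10389162 (2.50), from 10259650 to 10267712 (2.29), from 10361623 to 10367881 (2.24), from 10310092 to 10316077 (2.04) and from 10412367 to 10414969 (1.94). In replicate 2 their counterparts scored 2.79, 2.63, 2.44, 2.27, 2.10 and 1.87 in the same order. Each of the 13 clusters of replicate 1 that were at least 5 kb long or among those 20 had at least 81.4% of its bases in replicate 2. The strong clusters stood at intervals along the dense part and not at one centre. In replicate 1 the 9 clusters scoring at least 2 had midpoints a median of 20698.5 bp apart, the closest 9309 bp and the farthest 49403.5 bp.

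Not every long cluster scored high. That from 10338432 to 10345209 was 6778 bp long and scored 0.70 in replicate 1, and its counterpart from 10338425 to 10345277 scored 0.68 in replicate 2. It ranked 4 by length and 239 by score on distal 2L in replicate 1. The clusters from 10302783 to 10307941 (5159 bp) and from 10425623 to 10432487 (6865 bp) lay between these extremes, with scores of 1.43 and 1.57 in replicate 1 and 1.54 and 1.47 in replicate 2.

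Scores spread over a wide range within the block. The lowest, the median and the highest were 0.36, 0.96 and 3.70 in replicate 1, and 0.38, 0.85 and 3.88 in replicate 2. In the rest of distal 2L they were 0.12, 0.61 and 3.15 in replicate 1, and 0.19, 0.62 and 2.82 in replicate 2. From lowest to highest the block spanned 3.34 on the log2 scale in replicate 1 and 3.50 in replicate 2, and the rest 3.03 and 2.62. Scores of at least 2 were found in 9 of 34 clusters in replicate 1 (background 3.25%), 10 of 34 in replicate 2 (background 3.34%) and 8 of 40 in the combined list (background 1.73%). Clusters of lower score, under 1, made up 17 of 34 in replicate 1 and 18 of 34 in replicate 2. In the rest of distal 2L they were 397 of 519 and 324 of 415, so low scores were less frequent in the block.

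By length class, clusters of the block had higher median scores than those of the rest from 3 kb upward, and not below. Clusters of at least 5 kb had a median score of 2.24 in the block (9 clusters) and 0.96 in the rest (6 clusters) in replicate 1. In replicate 2 the medians were 2.27 in the block (9 clusters) and 0.79 in the rest (3 clusters). The ratio behind the median score was 2.43 times as high in the block in replicate 1 and 2.78 times in replicate 2. Between 3 and 5 kb the medians were 1.42 in the block and 0.90 in the rest in replicate 1, and 1.19 and 0.94 in replicate 2. Between 2 and 3 kb the order turned, with 0.68 in the block and 0.83 in the rest in replicate 1, and 0.80 and 0.81 in replicate 2. Under 2 kb they were 0.42 and 0.44 in replicate 1, and 0.44 and 0.45 in replicate 2. The long class is open-ended. It ran from 5159 to 15143 bp in the block (median 6719 bp) and from 5353 to 6501 bp in the rest (median 6076.5 bp) in replicate 1. In replicate 2 it ran from 5047 to 15260 bp in the block (median 6497 bp) and from 5340 to 6255 bp in the rest (median 5523 bp). The lengths compared there were therefore not alike, and the median of the rest is taken over 6 and 3 clusters.

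Seen the other way, clusters of high score were wider in the block than in the rest of distal 2L, while in both replicates their median length was below that of proximal 2L and of chromosome 4. Clusters scoring at least 1 numbered 17 of 34 in the block in replicate 1 (background 25.1%), 16 of 34 in replicate 2 (background 23.8%) and 15 of 40 in the combined list (background 14.8%). Their median length was 4365 bp in the block and 2361 bp in the rest in replicate 1, and 4699.5 bp and 2289 bp in replicate 2. At least 3 kb long were 82.4% of them in the block and 22.1% in the rest in replicate 1, and 81.2% and 23.1% in replicate 2. On proximal 2L the median length of such clusters reached 6016.5 bp in replicate 1 and 6516 bp in replicate 2, and on chromosome 4 it was 17629 bp and 17039.5 bp. Longer clusters had higher scores in the block and in the rest, with a Spearman rho of 0.79 across the 34 clusters of the block and 0.78 across the 519 of the rest in replicate 1. Both quantities come from the same reads, so this is a description across clusters.

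**Figure D4:**
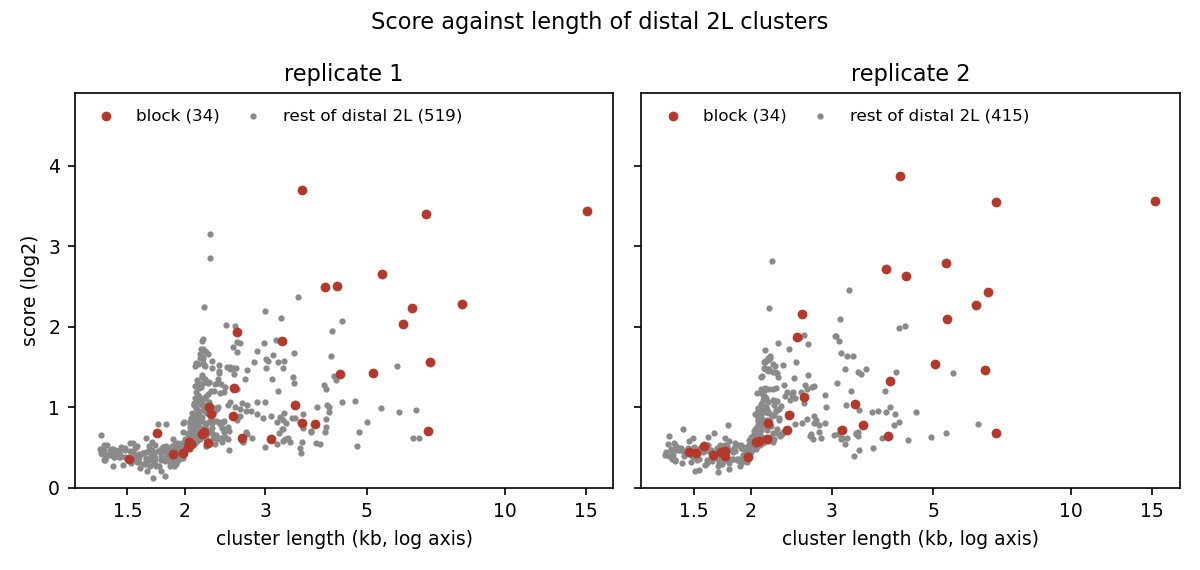
Score on a log2 scale (vertical axis) against cluster length in kb (horizontal axis, log scale) for clusters of the block and of the rest of distal 2L, 1 panel per replicate. Under 2 kb, no cluster of the rest scores above 0.82 in replicate 1 or 0.78 in replicate 2, and none of the block above 0.68 or 0.53. The 9 clusters of the block of at least 5 kb reach a median of 2.24 in replicate 1 and 2.27 in replicate 2. In the rest the medians at that length are 0.96 (6 clusters) and 0.79 (3 clusters).

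In places weak clusters lay directly beside strong ones. Of the 6 gaps under 1 kb in the block in replicate 1, 4 separated clusters whose scores differed by at least 1, and the median difference was 1.83. In the rest of distal 2L this was so for 3 of 37 such gaps, with a median difference of 0.25. Replicate 2 had 2 of 6 in the block, with a median difference of 0.74, and 2 of 28 in the rest, with 0.23. The combined list had 4 of 10 in the block, with 0.45, and 8 of 63 in the rest, with 0.21. Clusters scoring at least 1 were also more frequent in the block than in the rest. Whether the steps go beyond what this gives was not tested. The sharpest step flanked the highest-scoring cluster. In replicate 1 its left neighbour, 642 bp away, scored 0.55, and the ratio behind the score was 8.87 times as large in the stronger cluster. Its right neighbour, 816 bp away, scored 1.57, so both sides of this 1 cluster count among the steps of replicate 1. In replicate 2 the left neighbour lay 350 bp away, scored 0.43, and the step was 10.9 times. Another step, 462 bp wide in replicate 1 and 342 bp in replicate 2, led into the cluster that starts at 10352753 in replicate 1, where the ratio was 3.94 and 4.18 times as large as in its left neighbour. The combined list drew these 2 gaps at 7 bp and 15 bp and still kept the clusters apart.

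The replicates drew the block much alike. Of the bases called in either replicate, 83.1% were called in both, which compares with 68.1% in the rest of distal 2L. On proximal 2L the share was 81.7% and on chromosome 4 91.6%, so such agreement was not particular to the block. Both replicates called 88.8% of the replicate 1 bases of the block and 72.0% of those of the rest, while for replicate 2 the shares were 92.8% and 92.6%. Clusters with at least 50% of their bases in the other replicate numbered 31 of 34 in replicate 1, or 91.2%, where the background on distal 2L, the block included, was 74.7%. In replicate 2 they numbered 31 of 34 as well, where the background was 93.5%. These shares were not tested against the background. The 3 clusters of replicate 1 below that limit ran from 10203299 to 10205279 (score 0.43), from 10298950 to 10301613 (0.62) and from 10326972 to 10329013 (0.57), and none touched a cluster of replicate 2. Of the 3 in replicate 2, the cluster from 10371649 to 10373303 (score 0.41) was 14.1% covered in replicate 1. The other two, from 10179600 to 10181352 (0.39) and from 10438649 to 10440405 (0.46), touched no cluster of replicate 1. All 6 scored at most 0.62 and were at most 2664 bp long.

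Borders agreed closely. In 31 pairs of clusters matched one to one (at least 50% overlap of both), the median offset was 78 bp at starts and 80 bp at ends. In 379 matched pairs of the rest the medians were 54 and 58 bp. On proximal 2L, the pericentric 2 Mb of the arm, they were 168 and 153 bp over 90 pairs, and on chromosome 4 they were 169.5 and 189.5 bp over 64 pairs. The largest offset in the block was 1316 bp at a start and 1362 bp at an end. The required overlap itself limits these values.

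Scores of the matched pairs differed by a median of 0.11 in the block, and by 0.11 in the rest, disregarding sign. All 9 matched pairs of the block with a mean score of at least 2 scored higher in replicate 2, by 0.03 to 0.23 and a median of 0.13. Of the 7 pairs with a mean score from 1 to 2, 3 were higher in replicate 2, and of the 15 pairs under 1, 7 were, with differences from -0.48 to 0.16. In the rest of distal 2L, 1 of 5 pairs was higher in replicate 2 at 2 and over, 27 of 99 from 1 to 2 and 94 of 275 under 1. The constant of each list shifts all signed differences by the same amount, so a sign alone carries no reading of its own. It also enters the medians taken without sign. Contrasts between the classes do not depend on it, but the classes were not tested against each other.

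**Figure D5:**
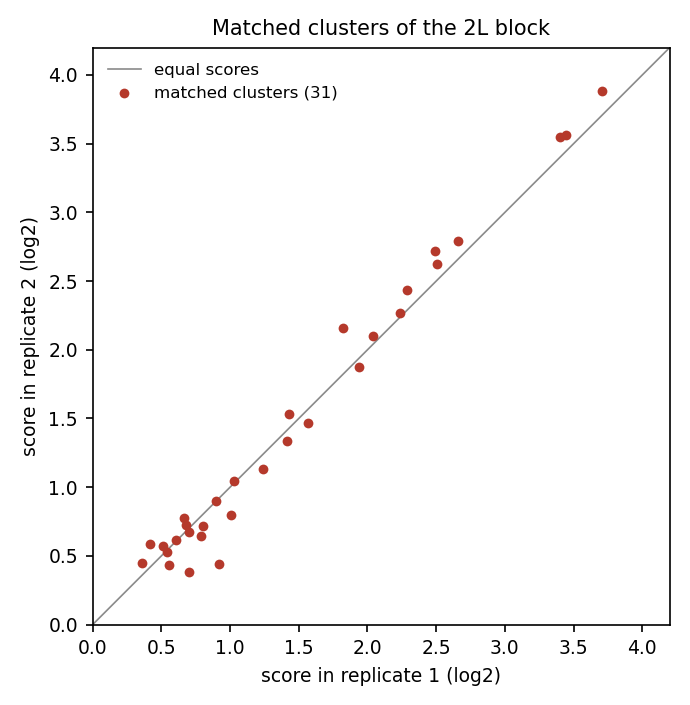
Score in replicate 2 (vertical axis) against score in replicate 1 (horizontal axis), both on the authors' log2 scale, for the 31 matched clusters of the block, with the line of equal scores. The 9 pairs with a mean score of at least 2 all lie above the line, and the 15 pairs with a mean score under 1 scatter on both sides of it.

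The combined list placed clusters beyond the edges that either replicate drew on the right. Of its 40 clusters in the block, 30 touched clusters of both replicates, 3 touched those of one, and 7 touched neither. Those 7 had a median score of 0.35, against 0.88 for the others. In the rest of distal 2L, 178 of 711 combined clusters touched neither, with a median score of 0.35, against 0.50 for the others. On chromosome 4, 16 of 81 did, with 0.41 against 0.79. Such clusters and their lower scores were thus not particular to the block. The 7 of the block comprised 3 short clusters inside the dense part and 4 in the last 50 kb window. The 3 short ones ran from 10323480 to 10324482, from 10325078 to 10326628 and from 10369004 to 10370098. Those in the last window ran from 10473594 to 10474650, from 10476198 to 10477732, from 10487706 to 10489520 and from 10490330 to 10491518, with scores of 0.28 to 0.46. In that window the combined list covered 11.2% and each replicate 0%. Of the bases of the combined list in the block, 10.3% lay in neither replicate, against 21.0% in the rest of distal 2L. In 3 places 1 combined cluster spanned at least 2 clusters of a replicate.

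Beside proximal 2L and chromosome 4, the block lacked the longest clusters, while its median length was not below that of proximal 2L in either replicate. The median was 3173.5 bp in the block and 2458 bp on proximal 2L in replicate 1, and 2889.5 bp and 2867 bp in replicate 2. On chromosome 4 it was 4982 bp and 4326 bp. Clusters of at least 5 kb made up 26.5% of all clusters of the block in each replicate, and 29.2% and 33.3% of those of proximal 2L. Proximal 2L was covered to about the same degree, 34.6% in replicate 1 and 35.6% in replicate 2, while the block held 9.71 clusters per 100 kb in each replicate and proximal 2L 6.5 and 6.45. The longest cluster reached 15143 bp and 15260 bp in the block, and 42064 bp and 37762 bp on proximal 2L. On chromosome 4, which was 71.7% and 70.8% covered, it reached 103159 bp and 63504 bp. High scores were more frequent in the block, with at least 2 in 26.5% of clusters in replicate 1 and 29.4% in replicate 2. On proximal 2L the shares were 12.3% and 10.9%, and on chromosome 4 they were 12.8% and 14.6%. The dense window on X from 15640001 to 15840000 was 32.6% and 26.4% covered, and only 1 of its 25 clusters in replicate 1 and 1 of its 19 in replicate 2 was at least 5 kb long. Of these clusters 16% and 26.3% scored at least 2. No test was run between these stretches.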

How the data were processed

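The submitters' processing notes name Bowtie 0.12.7, a short-read aligner. The authors deposited 1 list of enriched clusters for each ChIP replicate and 1 for the replicate set. Positions count from 1 and belong to FlyBase r5, as stated per the file headers. The caller, its threshold and the pooling of replicates were not given in the sources used here. The authors' score per cluster is on a log2 scale, as judged from the deposited values. Parts were compared by score within a list. Between the replicates, scores were set side by side for matching clusters, where the constant of each list enters the differences. For the alternatives, median scores were averaged over both replicates. The other deposited columns hold starts and ends. No read counts were at hand, so depth and its precision are unknown. Inputs entered only through the authors' calls.

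Clusters were placed by midpoint. Distal 2L is the arm without its last 2 Mb. Overlapping clusters were counted once in covered bases and joined before gaps were measured. A cluster was shared if at least 50% of its bases lay in the other replicate. Replicates were taken from the sample titles, and values over both are means with the SD (n = 2). No test between groups was run, because the members were chosen by coverage in the same lists. Regions named are, in replicate 1, clusters of at least 5 kb or among the 20 highest scores of distal 2L, the 5 longest gaps of the run joined over 10 kb, the clusters next to that run, and clusters that touch none in the other list. Further clusters, gaps and steps were named after their values were seen. The members, lists and rules were chosen with earlier results of these data known. Alternatives were high-scoring clusters, joining within 1 kb, the combined list, a narrower block, each replicate alone, other gap limits and other overlaps. Functions were tested on simulated intervals with known answers. Genes, sequence and repeats were not used here, because only a Release 6 gene table was given. Python 3.11.15, numpy 2.4.6, scipy 1.17.1 and matplotlib 3.10.9 were used.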

Additional observations from a re-analysis of the deposited data

How the results depend on the processing

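The ratio of coverage, block over rest, was computed for high-scoring clusters, joined clusters, the narrower block, the combined list and each replicate alone, and stayed above 6 in each. When clusters scoring below their list's median were dropped, 28.7% of the block was covered, the ratio to the rest was 12.4, 21 clusters remained on average, with a median length of 4038 bp, a median score of 1.85 and a median gap of 4972.75 bp, and the dense run measured 53616 bp. With clusters within 1 kb joined, the median length was 4043.5 bp, the median score 1.18 and the median gap 3556 bp. In the combined list coverage was 45.8%, the ratio 6.10, the median score 0.63, the median gap 1867 bp and the dense run 81043 bp. In the narrower block from 10230001 to 10430000 coverage was 54.0%, the ratio 10.6, the median length 3372.5 bp, the median score 1.13 and the median gap 3082 bp. Bases called in both replicates, 83.1% of those in either, became 83.3% with high-scoring clusters, 83.5% with joined clusters and 85.2% in the narrower block. The dense run, 80016.5 bp on average, depended most on its gap limit, with 21026.5 bp at 5 kb and 249614.5 bp at 20 kb. From 1 replicate alone, coverage was 36.9% to 38.5%, the ratio 6.77 to 8.34, the count 34 in each, the median length 2889.5 to 3173.5 bp, the median score 0.85 to 0.96, the median gap 2497 to 2962 bp and the run 79968 to 80065 bp. The share of clusters shared, 91.2%, was 92.6% with any overlap and 77.9% with at least 80%. Bins covered in both replicates numbered 119 at 50%, 151 with any base and 89 with all bases. For shifts that do not follow from fewer or joined clusters, the cause was not tested. No paired analysis was possible because the replicates form 1 group and inputs entered only through the authors' calls. Unknown depth limits what uncalled bases show: HP2 below the calling threshold would leave them empty.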
